A study of Homo sapiens with 2 samples.

Results

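Interferon-stimulated genes, the transcripts that cells raise in answer to interferon, were examined on 2 arrays of cells labelled HL60, the name of a human leukaemia line of promyelocytic origin; some marker genes, given below, go against that label. The groups are an untreated sample and a sample that received eltrombopag, an oral drug that activates the thrombopoietin receptor and chelates iron. Per the labels, the drug was used at 3 µg/ml over 36 h, all cells grew in RPMI with 10% serum, and no drug or vehicle is named for the untreated sample; the characteristics field calls the cells haematopoietic stem cells. The question was which genes differ in expression after the drug, and each group holds 1 array. Each value below is therefore 1 measurement without a replicate, the treatment cannot be tested, and there is no SD or p-value. The genes were taken from a list of 36 symbols. Of these, 34 of the 19775 genes on the array had at least 1 probe set annotated to them alone, 57 probe sets in all; STAT2 and IFI30 had none here and were not analysed.

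Interferons are secreted proteins that alert cells to infection. Type I interferons signal through the receptor chains IFNAR1 and IFNAR2 to a transcription factor complex that contains STAT2 and IRF9 and binds a DNA element called the ISRE in front of antiviral genes such as those of the IFIT, OAS and MX families. Interferon gamma signals through IFNGR1 and IFNGR2 to genes that carry a different element, the GAS, and induces IRF1 and the guanylate-binding proteins (GBPs), GTPases that attack intracellular pathogens. Many of these genes respond to both kinds of interferon. The members were therefore read as 28 listed type I response genes, 4 of the GBP and IRF1 type (GBP1, GBP2, GBP3 and IRF1), and 4 placed in neither group (IRF2, IFI16, IFI30 and TRIM22).

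Letters that match the ISRE or the GAS were found in the promoters of 22 of the 27 members with a promoter sequence at hand. Below, 6 stretches of 170 bases ending just before the RefSeq transcription start (GRCh38.p14) are shown for members that the signals turn on. HERC5 and BST2 had lower signals with eltrombopag, IFIH1 a higher one, ISG15 nearly equal ones, and IFIT1 lay near background; their capitals mark the ISRE core, which is GAAA, any 2 bases and GAAA again, searched on both strands. The capitals in IRF1 mark the GAS, TTCNNNGAA. The stretches lie upstream of the genes, at chr4:88456949-88457118 (plus strand) for HERC5, chr19:17405631-17405800 (minus strand) for BST2, chr2:162318685-162318854 (minus strand) for IFIH1, chr1:1013327-1013496 (plus strand) for ISG15, chr10:89392453-89392622 (plus strand) for IFIT1 and chr5:132490774-132490943 (minus strand) for IRF1.
HERC5: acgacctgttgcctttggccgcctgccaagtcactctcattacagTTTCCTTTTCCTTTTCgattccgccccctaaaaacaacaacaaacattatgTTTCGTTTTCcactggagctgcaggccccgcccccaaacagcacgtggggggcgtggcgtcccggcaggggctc
BST2: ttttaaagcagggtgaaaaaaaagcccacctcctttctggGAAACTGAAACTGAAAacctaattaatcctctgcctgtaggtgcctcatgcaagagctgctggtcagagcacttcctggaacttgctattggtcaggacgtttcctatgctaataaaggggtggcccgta
IFIH1: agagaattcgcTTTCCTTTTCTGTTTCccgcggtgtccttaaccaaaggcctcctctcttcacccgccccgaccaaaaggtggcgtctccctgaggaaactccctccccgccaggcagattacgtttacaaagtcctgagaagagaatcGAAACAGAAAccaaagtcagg
ISG15: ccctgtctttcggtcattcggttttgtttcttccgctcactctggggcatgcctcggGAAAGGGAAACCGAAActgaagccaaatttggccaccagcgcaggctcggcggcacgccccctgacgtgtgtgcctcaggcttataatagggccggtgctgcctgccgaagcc
IFIT1: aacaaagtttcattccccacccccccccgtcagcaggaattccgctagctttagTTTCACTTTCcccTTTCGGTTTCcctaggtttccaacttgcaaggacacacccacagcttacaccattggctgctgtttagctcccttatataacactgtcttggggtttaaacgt
IRF1: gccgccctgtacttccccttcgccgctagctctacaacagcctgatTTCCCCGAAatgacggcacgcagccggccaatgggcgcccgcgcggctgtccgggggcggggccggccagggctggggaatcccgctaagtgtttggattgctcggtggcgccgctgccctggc
HERC5 and IFIH1 each held 3 matches to the ISRE core, of which the first and second overlap, and BST2 and ISG15 each held 2 that overlap.

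RefSeq promoter windows of 300 bases, 250 before and 50 after the start, were at hand for 27 of the 36 genes, 34 windows in all. The ISRE core was found in 22 of these 34 windows (64.7%), against 3.57% of all 35116 windows. The GAS was found in 10 of the 34 (29.4%), against 7.66% of all windows; some GAS matches overlap an ISRE match, as in BST2 and IFI27. Of the type I response genes with a window, 16 of 22 held the ISRE core, and of the 3 GBP and IRF1 type genes with a window, GBP1 and GBP3 did. These letters describe the windows and are not evidence of binding. Among measured genes with a window, holding the ISRE core did not go with one direction of signal in these arrays: the 11 measured genes that held it had log2 ratios from -0.99 (HERC5) to 0.55 (IFIH1), with a median of -0.03, and the 5 measured genes whose windows lacked it spanned -0.32 (IRF1) to 0.31 (HERC6), with a median of -0.11. GBP2, IRF2, IRF7, IFIT2 and TRIM22 were measured but had no window, so they are left out. The highest ratio of all members, at least 1.23 for GBP2, is among these.

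**Figure D1:**
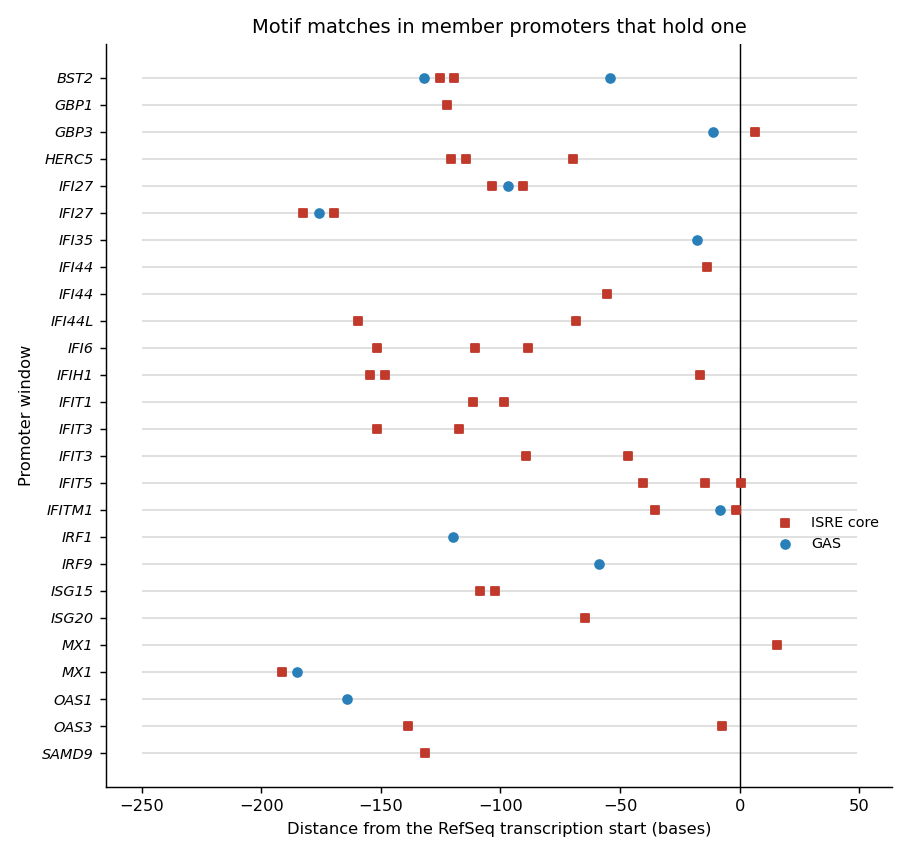
Positions of the ISRE core (squares) and the GAS (circles) in the 26 member promoter windows that hold either, in bases from the RefSeq transcription start; each grey line is 1 window. Most ISRE matches lie before the start, and HERC5, IFI6, IFIH1 and IFIT5 hold 3 each.

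Signals are MAS5 values, a linear measure of brightness that the authors deposited for each probe set. A floor was set at a signal of 56.9, the 60th percentile of both arrays pooled, and any lower signal was replaced by the floor in a ratio. A gene is called measured when its brightest probe set exceeded the floor on either array. Ratios are eltrombopag over untreated on the log2 scale, and where the floor replaced 1 of the signals, the size of the ratio is a lower bound. Among all measured genes, the share with a ratio of 2-fold or more was 0.650% on the higher and 2.27% on the lower side. For the 9597 genes with both signals above the floor, log2 ratios had a median of -0.12 and quartiles of -0.37 and 0.11. Quantile normalization moved the median of all measured genes to -0.01, and the 67 higher and 234 lower genes became 82 and 186 after median centring, 106 and 135 after lowess and 108 and 133 after quantile normalization. The one error these arrays offer is how far a gene's probe sets disagree. In 4374 genes it had a median of 0.21 on the log2 scale and was below 0.76 in 95%, and it leaves out any variation between cultures.

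The labelled cell type was checked against marker genes. Of 9 promyelocyte markers on the array, 8 exceeded the floor on both arrays, among them MPO, myeloperoxidase, at 1556 untreated and 1467 with eltrombopag. ELANE, neutrophil elastase, was near background at 11.1 and 8.04. CDKN2A, a gene known to be lost from HL60, gave signals of 1116 and 782 in the brightest of its probe sets and of 142 and 113 in another, which goes against the label. Plasma cell markers were also present, with 9 of 10 above the floor in both samples and CD27 below it in both. Their summed signal was 16531 without the drug and 10396 with it. That of the promyelocyte markers was 11567 and 11189, of which SRGN alone gave 7160 and 7685. Of the 8 measured promyelocyte markers, 6 had a log2 ratio below 0 and 2 above. Their median was -0.22, against -0.12 for all measured genes. CTSG, at -0.84, RNASE2, at -0.76, and CFD, at -0.61, were the lowest. The 4 monocyte markers lay below the floor in both samples, with sums of 73.9 and 98.6, and no marker was at 0. Of 5 B cell markers on the array, 2 were measured, PAX5 at 132 untreated and 53.5 with eltrombopag, and CD22 at 115 and 94.65. Of 6 T and NK cell markers, 1 was measured, CD3E, at 15.3 and 59.2. Of 5 plasmacytoid dendritic cell markers, 1 was measured, TCF4, at 1647 and 1319. The identity of the cells is thus in doubt, and the samples are named here as labelled. Differences in cell makeup cannot be told apart from differences per cell in such bulk RNA.

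**Figure D2:**
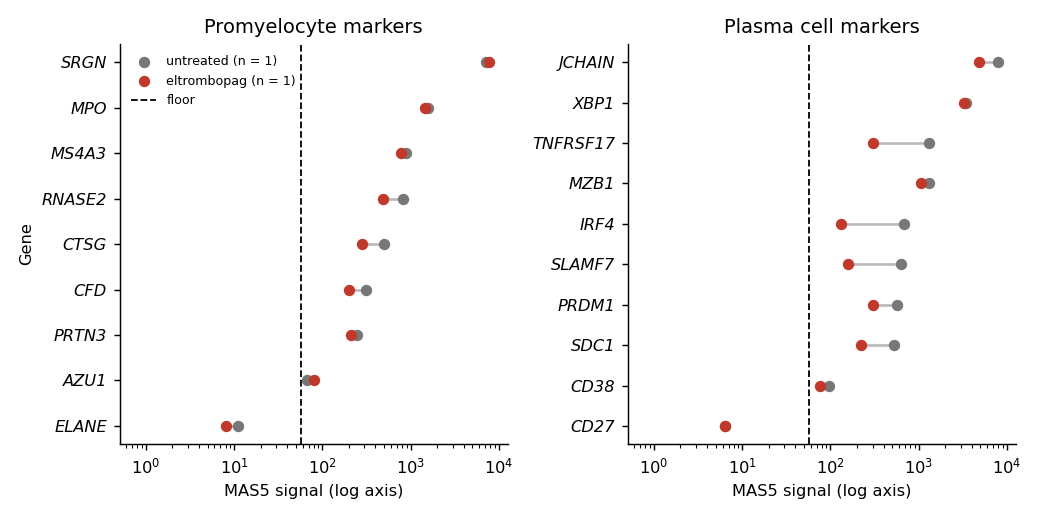
MAS5 signals (log axis) of promyelocyte markers (left) and plasma cell markers (right) in the untreated (grey) and the eltrombopag sample (red), 1 array each; the dashed line is the floor of 56.9. Both kinds of marker lie above the floor except ELANE and CD27, and IRF4, TNFRSF17 and SLAMF7 are lower with eltrombopag.

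The interferon-stimulated genes showed no common difference between the samples. GBP2 was higher with eltrombopag by at least 2.34-fold, HERC5, ISG20 and BST2 were lower by 1.99-fold, at least 1.90-fold and 1.76-fold, and many classical antiviral genes were near background in both samples. Of the 34 members on the array, 21 were measured (61.8%, against 52.2% of all genes), 15 of them above the floor in both samples and 6 in 1 sample. Of the 21, 1 was at least 2-fold higher, where the background over all measured genes was 0.650%, and 0 were at least 2-fold lower, where it was 2.27%. At 1.5-fold, 1 was higher and 3 were lower, where 3.49% and 11.8% of all measured genes were. Ratios above 0 were found for 9 of the 21 and below 0 for 12, a balance that became 11 and 10 after median centring and reversed to 14 and 7 after quantile normalization and after lowess. On the deposited scale the median was -0.03, against -0.12 for all measured genes, of which 36.6% had a ratio above 0.

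**Figure D3:**
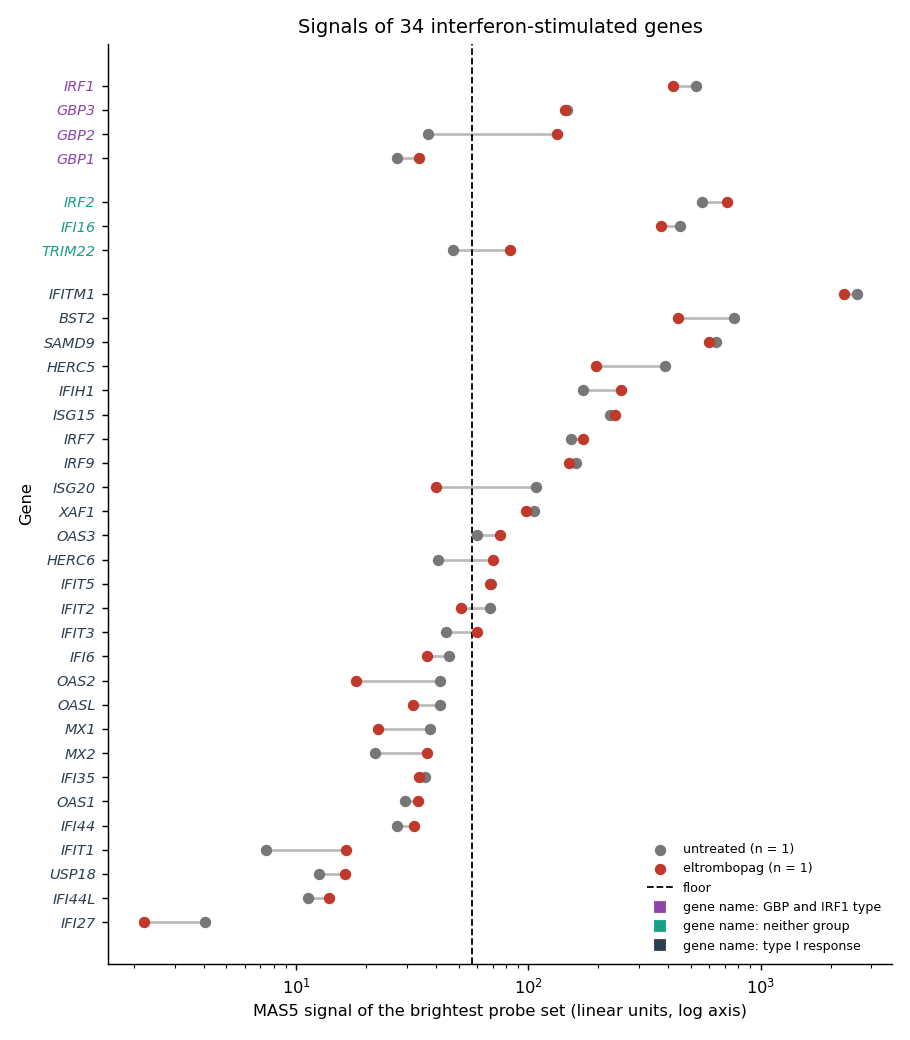
MAS5 signals (log axis) of the brightest probe set of 34 interferon-stimulated genes in the untreated (grey) and the eltrombopag sample (red), 1 array each, with names coloured by group and the floor of 56.9 dashed. GBP2 crosses the floor upwards and ISG20 downwards, and 13 genes lie below it in both samples.

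The GBP and IRF1 type genes differed among themselves. GBP2 gave signals of 36.8 untreated and 133 with eltrombopag, 3.62-fold without the floor and at least 2.34-fold with it. Its other probe set was under the floor on both arrays, at 4.93 and 29.2, where no direction can be read. GBP3 gave 147 and 144, so its samples were nearly equal. GBP1, the best-known interferon gamma target of the family, lay below the floor in both samples in all 4 of its probe sets, with 27.2 and 33.7 in the brightest. IRF1, a transcription factor that carries the interferon gamma signal to later genes, gave 526 untreated and 421 with eltrombopag, a log2 ratio of -0.32. Its second probe set gave 121 and 119, a ratio of -0.03 that turned above 0 under the other scalings. These genes therefore did not differ in one direction, and the one higher value was that of GBP2. GBP3, GBP1 and GBP2 follow each other on chromosome 1 with no protein-coding gene between them, and their log2 ratios were -0.03, none because both samples lay below the floor, and at least 1.23.

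The median log2 ratio was -0.03 over the 3 measured GBP and IRF1 type genes and -0.09 over the 15 measured type I response genes, a difference of 0.06. The difference became 0.26 when the 4 genes of neither group were added to the GBP and IRF1 type, whose median was then 0.16, and 0.23 without a floor or filter, where that median was 0.14. Over members above the floor in both samples, the medians were -0.17 for GBP3 and IRF1 and -0.09 for 11 type I genes, so the order of the groups turned when GBP2 was left out. With median centring, lowess or quantile normalization the GBP and IRF1 type median was above 0, at 0.03, 0.12 and 0.12, and that of the type I genes was -0.03, 0.05 and 0.06. Neither group has a settled direction.

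**Figure D4:**
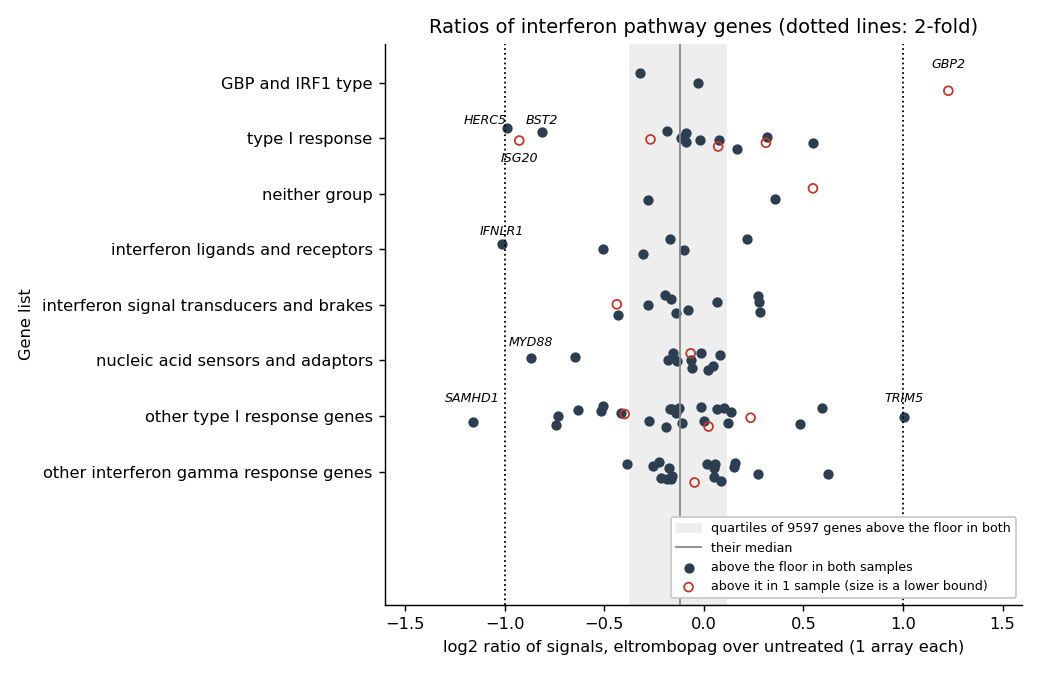
Log2 ratios of signals, eltrombopag over untreated (1 array each), for measured genes of the member groups and of further interferon lists; filled points lie above the floor in both samples and open points in 1, the grey band spans the quartiles (-0.37 and 0.11) and the line the median (-0.12) of 9597 genes. GBP2 and TRIM5 lie beyond the 2-fold line on the higher side and IFNLR1 and SAMHD1 on the lower side.

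The transcription factors of the type I pathway had similar signals in both samples. IRF9, the DNA-binding partner of STAT2, gave 160.0 and 150.2. IRF7, which amplifies type I interferon production, gave 153 and 171. IRF2, an antagonist of IRF1 placed in neither group, gave 561 untreated and 717 with eltrombopag, a log2 ratio of 0.36 that exceeds the ratio of 90.4% of genes measured in both samples. None of these factors reached 1.5-fold, and the sign of the IRF9 ratio, -0.09, turned above 0 after quantile normalization and lowess.

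Members of the ISG15 pathway, which attaches the ubiquitin-like protein ISG15 to other proteins, included HERC5, the member with the lowest ratio. ISG15 itself gave 224 untreated and 236 with eltrombopag. HERC5, the main ligase that attaches ISG15, gave 388 and 195, 1.99-fold lower, and 2.34% of genes measured in both samples had a lower ratio. Its log2 ratio of -0.99 rests on 1 probe set and lay between -0.99 and -0.86 under the alternatives tried, of which only the other scalings moved it. HERC6, its neighbour on chromosome 4 with no protein-coding gene between, differed in the other direction, at 40.8 and 70.6, the untreated value lying below the floor, so it was higher by at least 1.24-fold. USP18, the protease that removes ISG15, lay below the floor at 12.6 and 16.2. HERC5 was thus lower, ISG15 was nearly equal in the samples, and no direction can be read for USP18.

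ISG20 and BST2 were the other type I response genes with clearly lower signals. ISG20, an RNA exonuclease that is also abundant in plasma cells, gave 108 untreated and 39.9 with eltrombopag in one probe set and 111 and 34.9 in the other. The eltrombopag value lay below the floor in each, so it was lower by at least 1.90-fold and 1.95-fold, and by 2.71-fold and 3.18-fold without the floor. BST2, tetherin, a membrane protein that holds budding viruses at the cell surface and is also a plasma cell antigen, gave 771 and 439, 1.76-fold lower, on 1 probe set; 4.91% of genes measured in both samples had a lower ratio. Plasma cell markers were lower in the same sample. Of 10 on the array, 9 were above the floor in both, and all 9 had a ratio below 0, with a median of -0.93. After quantile normalization it was 8 of 9, with XBP1 above 0. Among all measured genes, 6538 of 10314 had a ratio below 0. A second probe set of MZB1 went the other way, at 1013 and 1080, a log2 ratio of 0.09. Of the 9 markers, IRF4, TNFRSF17, SLAMF7 and SDC1 were at least 2-fold lower, where 2.27% of all measured genes were. IRF4, a regulatory factor of plasma cells outside the members, gave 677 and 131. The part of the plasma cell markers in the ISG20 and BST2 values was not tested. IFITM1, a membrane protein that blocks viral entry, was the brightest member at 2594 and 2285, a log2 ratio of -0.18; its probe set carries the suffix _s_at and the IFITM genes are similar in sequence, so its signal may be shared.

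**Figure D5:**
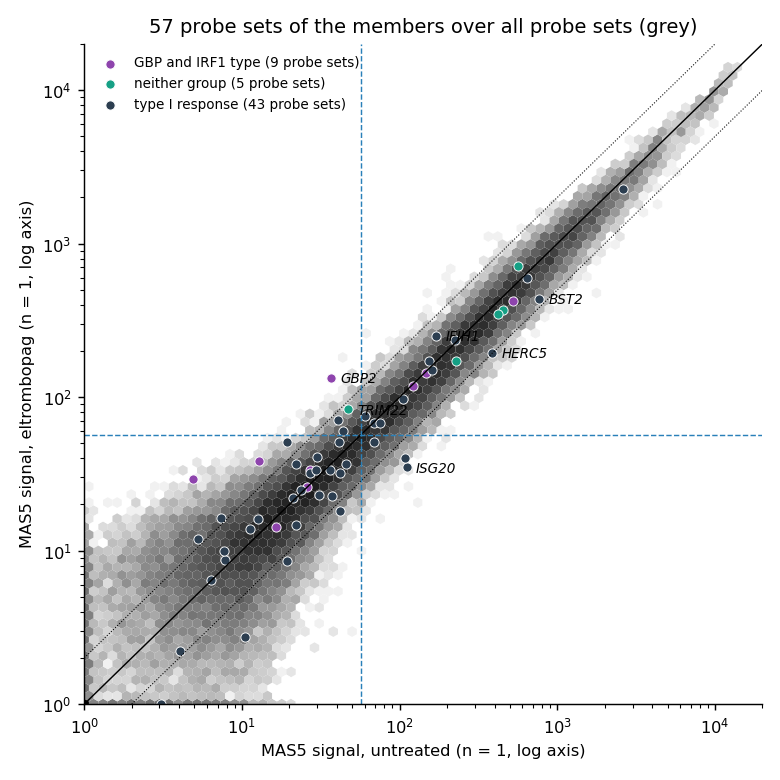
MAS5 signals of the 57 member probe sets in the untreated (horizontal) and the eltrombopag sample (vertical), both on log axes, over all probe sets (grey, darker where more lie); the solid line marks equal signals, dotted lines 2-fold, and dashed lines the floor. Most member probe sets lie near the solid line, and 31 of the 57 lie below the floor in both samples. Some of these dim probe sets, as of GBP1 and HERC6, lie beyond the 2-fold lines. Probe sets above the floor in at least 1 sample that stand off the solid line include those of GBP2, HERC5, ISG20 and BST2. Those of HERC5 and BST2 lie inside the 2-fold lines.

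Among the members, sensors and effectors of the response to viral RNA were mostly dim. IFIH1, the sensor MDA5, was an exception, at 171 untreated and 251 with eltrombopag. Its log2 ratio of 0.55 exceeds the ratio of 95.9% of genes measured in both samples. The other 2 probe sets of IFIH1 lay below the floor. OAS3, which makes the second messenger that activates RNase L, gave 60.3 and 75.04, close to the floor, while OAS1, OAS2 and OASL lay below it in both samples. Of the IFIT genes, which bind viral RNA, IFIT5 gave 69.3 and 68.2. IFIT2, at 68.5 and 51.4, and IFIT3, at 44.0 and 59.8, lay above the floor in 1 sample each and in opposite samples, and IFIT1 lay below it at 7.38 and 16.3. The GTPases MX1, at 37.5 and 22.6, and MX2, at 21.9 and 36.7, lay below the floor as well. Together with GBP1, IFI6, IFI27, IFI35, IFI44, IFI44L and USP18, 13 members were below the floor in both samples. Their 21 probe sets ranged from 2.21 to 45.5, and 11 were brighter with eltrombopag and 10 in the untreated sample, so no direction can be read from them.

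The remaining members were IFI16, SAMD9 and XAF1, with log2 ratios between -0.28 and -0.09 in their brightest probe sets, and TRIM22. IFI16, a sensor of DNA, gave 450.3 and 371 in its brightest probe set, and its 3 probe sets had log2 ratios of -0.28, -0.42 and -0.28. SAMD9, an antiviral translation repressor, gave 641 and 602, with ratios of -0.09 and -0.13 in its probe sets. XAF1, a pro-apoptotic protein, gave 106 and 97.8. TRIM22, an antiviral ubiquitin ligase, gave 47.3 untreated, below the floor, and 83.2 with eltrombopag, at least 1.46-fold higher on 1 probe set with the suffix _s_at. IFI16, IRF1 and SAMD9 were the 3 members with several probe sets measured on both arrays; on the deposited scale these had ratios of the same sign, and they differed by at most 0.30.

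Other genes of the pathway were listed apart from the members. Transcripts of the ligands IFNA1, IFNA2, IFNB1, IFNE, IFNG, IFNK and IFNL1 lay below the floor in both samples, the highest being IFNL1 at 26.4 and 25.1. Of 6 measured receptor genes, 0 were at least 2-fold higher and 1 was lower, where 0.650% and 2.27% of all measured genes were. The lower one was IFNLR1, a chain of the type III interferon receptor, at 134 untreated and 66.5 with eltrombopag, 2.02-fold. It was below 2-fold after median centring (log2 ratio -0.95), lowess and quantile normalization (-0.87 each). IL10RB, a chain shared with the interleukin-10 receptor, had a log2 ratio of -0.51. The chains of the receptors for type I interferon and interferon gamma are given with all their measured probe sets, as chosen after their values were seen. IFNAR1 had log2 ratios of -0.31, -1.06 and -0.13 in its probe sets above the floor, and IFNAR2 -0.10, -0.18 and -0.65. IFNGR1 had 0.22, 0.72 and 1.08, with 821 and 955 in the brightest, and IFNGR2 -0.17. The probe sets of IFNGR1 were thus all brighter with eltrombopag and those of IFNAR1 and IFNAR2 all dimmer, with sizes that differed between probe sets; the brightest IFNAR2 probe set came to 0.00 after quantile normalization.

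Of 11 measured signal transducers and their brakes, 0 differed by 2-fold in their brightest probe sets. SOCS1, a feedback inhibitor of JAK kinases, had a log2 ratio of -0.44 with 1 side at the floor, PTPN11, the phosphatase SHP2, -0.43, STAT3 -0.28 and JAK2 0.28. The other JAK2 probe sets were also brighter with eltrombopag. They gave 65.78 untreated and 131.76 with eltrombopag, just past 2-fold, and 49.85 and 93.24. The latter had a log2 ratio of 0.71 with the untreated side at the floor. The size of the JAK2 difference is thus not settled. Of 12 measured nucleic acid sensors and adaptors, 0 differed by 2-fold in their brightest probe sets. MYD88, the adaptor of most Toll-like receptors, gave 556 untreated and 305 with eltrombopag, a log2 ratio of -0.87, and STING1, the adaptor of the DNA sensor CGAS, 164 and 105, with ratios of -0.65 and -0.70 in its probe sets. The lower values thus included the adaptors MYD88 and STING1. Other adaptors, named after their values were seen, were nearly equal in their brightest probe sets. MAVS gave 841 and 834, and TICAM1 gave 132 and 136. CGAS itself, also named after its values were seen, gave 331 and 336. RIGI, the sensor related to IFIH1 and also named after its values were seen, had probe sets that disagreed, at -0.13 and 1.09, and has no settled direction.

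Of 26 measured type I response genes outside the members, 1 was 2-fold higher or more and 1 was lower by as much. The shares over all measured genes were 0.650% and 2.27%. The median log2 ratio of the 26 was -0.13, against -0.12 for all measured genes. TRIM5, which restricts retroviral capsids, gave 87.9 untreated and 177 with eltrombopag, 2.01-fold. SAMHD1, which depletes deoxynucleotides, gave 785 and 351, 2.24-fold lower; its other probe sets had ratios of -1.21, -0.77 and 0.09, so they disagreed. Of 18 measured interferon gamma response genes outside the members, 0 differed by 2-fold. Of their ratios, 9 were above 0 and 9 below, and the median was -0.02, where 36.6% of all measured genes were above 0 and the median was -0.12. CD74, the invariant chain of HLA class II, gave 751 and 1155, PSMB10, a subunit of the immunoproteasome, 362 and 278, WARS1 3124 and 3774 and TAPBP 1464 and 1226. GBP4 and GBP5, relatives of GBP2 named after their values were seen, lay below the floor in both samples, so a higher signal among the GBPs was measured for GBP2 alone of the 5 examined.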

How the data were processed

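Total RNA of 2 samples, 1 per group, was hybridised to expression arrays. The authors deposited linear signal intensities, 1 for each probe set of each array, made with MAS5 per the submitters' processing notes. Its version and scaling target, and any detection calls, are not given in the labels or the table. The number of arrays limits the precision. Of 54613 probe sets, 41091 named 1 gene in the platform annotation, 1801 named more than 1 and were not used, and 11721 had no entry; 41037 had an identifier in the RefSeq table of GRCh38.p14, which changed 0 symbols.

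Values were taken as deposited, with a floor at the 60th percentile. For each gene, the brightest probe set, by mean log2 signal, was taken. Members, gene lists and rules were chosen with earlier results of these data known. All members were named; of each further pathway list, genes past 2-fold or otherwise up to 4 with the largest log2 ratio were named, and exceptions are marked in the text. Promoter sequences came from RefSeq (GRCh38.p14); 9 members had none. Alternative scalings were quantile normalization, lowess (span 0.3) and median centring. Alternative floors were the 75th percentile, the 50th percentile and no floor (with 1 as the lowest value). Averaging a gene's probe sets, leaving out the cross-hybridising types (_x_at, _s_at), other filters, folds of 1.5 and 3, and other group memberships were also tried. Python 3.11.15, numpy 2.4.6, pandas 2.3.3 and statsmodels 0.14.6 were used.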

Additional observations from a re-analysis of the deposited data

How the results depend on the processing

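No paired analysis was possible because each group holds 1 sample. The 1 member at least 2-fold higher, GBP2, remained the 1 such member under median centring, quantile normalization, lowess, the floor at the 50th percentile, averaging of a gene's probe sets, leaving out the _x_at and _s_at types, and a filter on the mean signal. Averaging and leaving out those types could not change GBP2. It has 1 probe set above the floor, without either suffix, and its log2 ratio stayed at 1.23. A lower floor could only enlarge that ratio. These settings are therefore no check on the GBP2 value. The count of higher members was 0 with the floor at the 75th percentile, 0 among members above the floor in both samples, 0 at 3-fold, and 2 (GBP2 and IFIT1, both dim in the untreated sample) without a floor. The count of lower members, 0 as reported, was 1 (ISG20) with the floor at the 50th percentile, 2 (ISG20 and OAS2) without a floor and 3 at 1.5-fold. With the floor at the 75th percentile the GBP and IRF1 type median rested on IRF1 alone, at -0.32, and the difference of the group medians was -0.23. Over all alternatives, the type I median lay between -0.09 and 0.06, the GBP and IRF1 type median between -0.32 and 0.16, and their difference between -0.23 and 0.26, so its sign is not settled; it was -0.08 among members above the floor in both samples. Of 151 values of single members under the alternatives, 141 moved by less than 0.21, the SD of 1 probe set estimated from the disagreement between probe sets, and 10 by more, all of them for GBP2, HERC6, IFIT3, ISG20 and TRIM22, whose ratios grew in size once the floor was lowered. The sign turned under at least 1 alternative for GBP3, IFIT5, IRF9, SAMD9 and XAF1, whose ratios lay between -0.11 and -0.02. For 13 members no ratio can be given at this signal over background.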
